A study of Rattus norvegicus with 24 samples.

Results

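Hypothalamus libraries of rat pups at postnatal day 10 (PN10) that held more orexin mRNA than others of their sex and maternal diet group also held, on average, more myelin and oligodendrocyte mRNA and less mRNA of the cytoskeletal genes Tubb2b, Dcx and Mapt, although no gene passed the test once consecutive library numbers were modelled as pairs. The comparison set 12 libraries rich in Hcrt, the gene of the orexin precursor, against 12 poor in it, which together are all 24 libraries of the study. Members were chosen by measured values: Hcrt was expressed as CPM (the count divided by the library's total and multiplied by 1e+06), the 6 libraries of each group were ranked by it, and the upper 3 were called Hcrt-rich and the lower 3 Hcrt-poor.

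The pups were Sprague Dawley rats whose mothers ate either a high fat diet (the group HFD-O) or a control diet (the group CON-O). Lipids gave 43% of digestible energy in the high fat diet and 12% in the control diet. The mothers ate these diets from before mating, through pregnancy and until PN10. The 4 groups were female HFD-O, female CON-O, male HFD-O and male CON-O, with 6 libraries each. All came from whole dissected hypothalamus, so that a library mixes every cell type in the dissected piece. Libraries carry the numbers 1 to 24 in the labels, odd for males and even for females, and they are named here by those numbers.

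Orexin neurons lie in the lateral and perifornical hypothalamus, and they are known for promoting wakefulness, arousal and feeding. Their precursor protein, encoded by Hcrt, is cut into orexin A and orexin B, which act on the receptors encoded by Hcrtr1 and Hcrtr2. Orexin neurons are glutamatergic and also make dynorphin from Pdyn, and they are intermingled with neurons that make melanin-concentrating hormone (MCH). At this age oligodendrocytes in the rat hypothalamus are still forming from their precursors and starting to wrap axons.

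The promoter of Hcrt is shown because Hcrt chose the libraries, and those of Cnp and Mobp (myelin genes that were higher in Hcrt-rich libraries) and Tubb2b (a tubulin gene that was lower) because the results turn on them. Each line gives the 250 bases before the annotated start of transcription, 5′ to 3′, from RefSeq on the rat build GRCr8. Capitals mark TATAAA, the TATA box letters, and ACAAAG, the core letters bound by SOX factors, on either strand (reverse strand matches read TTTATA and CTTTGT). These motifs do not overlap each other in the windows shown.
Hcrt, chr10:86191525-86191774, minus strand: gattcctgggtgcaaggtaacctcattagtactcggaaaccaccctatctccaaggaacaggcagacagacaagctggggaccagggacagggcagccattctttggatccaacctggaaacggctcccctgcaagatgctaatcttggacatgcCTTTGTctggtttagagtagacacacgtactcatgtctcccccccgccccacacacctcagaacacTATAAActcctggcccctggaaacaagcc
Cnp, chr10:86011254-86011503, plus strand: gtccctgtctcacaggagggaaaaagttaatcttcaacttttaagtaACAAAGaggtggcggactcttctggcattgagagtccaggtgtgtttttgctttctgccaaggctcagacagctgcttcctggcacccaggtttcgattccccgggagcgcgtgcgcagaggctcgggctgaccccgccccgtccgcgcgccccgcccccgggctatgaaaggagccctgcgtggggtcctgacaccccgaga
Mobp, chr8:128746982-128747231, plus strand: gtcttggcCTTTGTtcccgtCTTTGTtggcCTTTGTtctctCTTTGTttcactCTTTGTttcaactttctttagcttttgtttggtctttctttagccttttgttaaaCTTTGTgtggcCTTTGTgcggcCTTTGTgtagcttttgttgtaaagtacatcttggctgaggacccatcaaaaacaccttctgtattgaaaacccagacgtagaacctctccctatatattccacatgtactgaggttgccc
Tubb2b, chr17:30952836-30953085, plus strand: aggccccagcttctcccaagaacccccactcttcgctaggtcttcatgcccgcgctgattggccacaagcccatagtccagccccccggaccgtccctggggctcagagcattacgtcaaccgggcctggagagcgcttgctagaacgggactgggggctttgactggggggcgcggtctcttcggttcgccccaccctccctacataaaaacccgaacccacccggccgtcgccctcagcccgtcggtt

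The Hcrt window held 1 TATAAA, starting 29 bases before the start, and 1 ACAAAG on the reverse strand. Of the 92 genes called below, 46 of those higher and 21 of those lower matched a promoter of the table by symbol. Among all 27457 promoters of the same length, 14.1% held TATAAA and 17.2% held ACAAAG on either strand, and among the 8748 of genes tested here 6.47% held TATAAA and 11.8% held ACAAAG. The TATA box letters were found for 5 of the 46 symbols of higher and 1 of the 21 of lower genes. The SOX core letters were found for 12 of the 46 and 4 of the 21, given as a description with no test. The Cnp window held 1 ACAAAG, the Mobp window held 8, all on the reverse strand, and the Tubb2b window had neither motif.

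Hcrt was measured with 158 to 431 reads per library. In female HFD-O libraries the Hcrt-rich values were 45.4 CPM (library 14), 39.8 CPM (library 20) and 35.3 CPM (library 18), against 31.8 CPM (library 16), 29.9 CPM (library 22) and 25.4 CPM (library 24) in the Hcrt-poor ones. In female CON-O libraries the Hcrt-rich values were 66.0 CPM (library 10), 51.0 CPM (library 12) and 39.4 CPM (library 6), against 35.2 CPM (library 2), 30.8 CPM (library 8) and 29.6 CPM (library 4) in the Hcrt-poor ones. The values just inside and just outside the split, 39.4 and 35.2 CPM, lay closer to each other than the 3 Hcrt-rich values did, and library 10 had the highest Hcrt level of the study. In male HFD-O libraries the Hcrt-rich values were 45.3 CPM (library 13), 41.6 CPM (library 19) and 32.02 CPM (library 17), against 29.4 CPM (library 21), 26.02 CPM (library 23) and 21.3 CPM (library 15) in the Hcrt-poor ones. In male CON-O libraries the Hcrt-rich values were 63.5 CPM (library 11), 40.8 CPM (library 7) and 39.7 CPM (library 5), against 37.3 CPM (library 3), 33.3 CPM (library 1) and 28.6 CPM (library 9) in the Hcrt-poor ones. Because ranking was within groups, the classes overlap across groups: library 17, the lowest of the Hcrt-rich ones, lay below library 3, the highest of the Hcrt-poor ones. Over all groups the mean Hcrt level was 45.0 ± 10.4 CPM in Hcrt-rich and 29.9 ± 4.38 CPM in Hcrt-poor libraries (SD, n = 12 each), a difference that the ranking set and that was not tested.

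**Figure D1:**
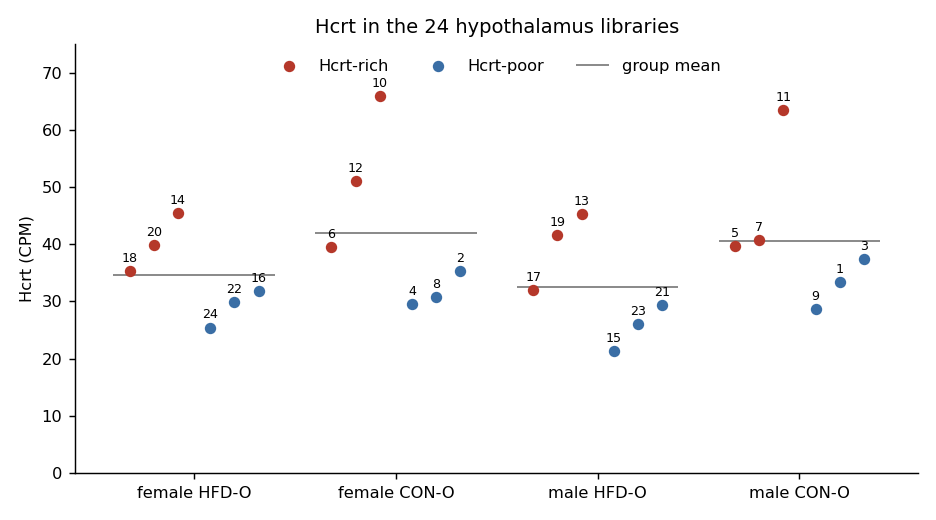
Hcrt in CPM (vertical axis) for each of the 24 libraries by sex and maternal diet group, with red points for the Hcrt-rich and blue points for the Hcrt-poor libraries, library numbers above the points, and a grey line at each group's mean. Libraries 10 and 11 lie highest at 66.0 and 63.5 CPM, and the lowest Hcrt-rich library of each group lies close to its highest Hcrt-poor one.

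The maternal diet itself left no detectable difference in Hcrt. In females Hcrt averaged 34.6 ± 7.19 CPM in HFD-O and 42.0 ± 14.1 CPM in CON-O libraries (SD, n = 6 each), a difference in mean log2 CPM of -0.24 (p = 0.303, 2-sided exact permutation test). In males it averaged 32.6 ± 9.20 CPM in HFD-O and 40.5 ± 12.1 CPM in CON-O libraries (SD, n = 6 each), a difference of -0.32 (p = 0.21, 2-sided exact permutation test). The ranges of the diets overlapped in both sexes. Each p-value is the share of all exchanges of the diet labels within a sex that gave a difference at least as large. All CON-O libraries carry numbers from 1 to 12 and all HFD-O libraries from 13 to 24, so diet and library order cannot be told apart. In bulk tissue, fewer orexin neurons and less Hcrt RNA per neuron cannot be told apart.

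Consecutive library numbers, an odd male and the next even female, carried like Hcrt levels. Of the 12 such pairs, 10 had both libraries in the same class, among them all 6 HFD-O pairs and 4 of the 6 CON-O pairs. The exceptions were libraries 7 and 8, with 40.8 and 30.8 CPM, and libraries 10 and 9, with 66.0 and 28.6 CPM. Over 10769 genes, with group means removed, the correlation between the libraries of a pair ranged between 0.0491 and 0.473 with a median of 0.266, against a median of -0.042 for other combinations of a male and a female library of the same diet. These correlations are across genes, which are not independent replicates. Removing group means also pushes the other combinations below 0 where pairs correlate above 0, so the medians are not independent of each other. Per the study's methods there were fewer litters than libraries in both diets, so some libraries of each diet share a litter. The study counts n in litters and gives 6 for each sex and diet, as many as its control litters. Male and female CON-O libraries would then come from the same litters. No source used here says which libraries share a litter, or whether consecutive pairs are littermates or share a day of dissection. Tests without the pairs treat all 24 libraries as independent.

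**Figure D2:**
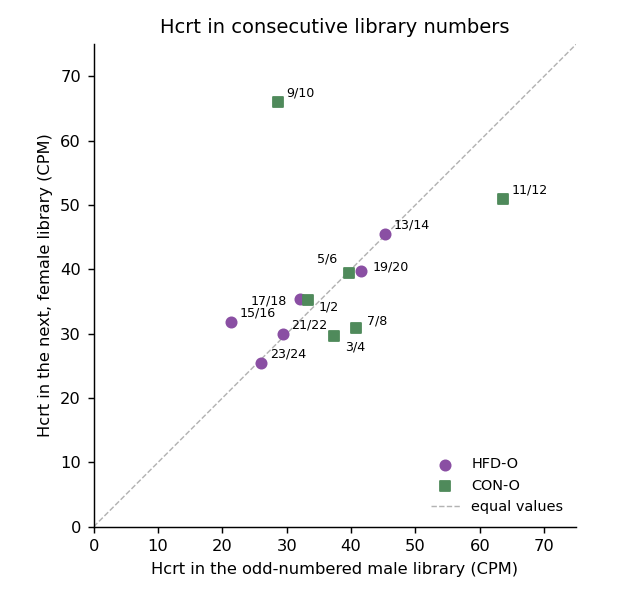
Hcrt in CPM in the odd-numbered male library (horizontal axis) and in the next, female library (vertical axis) for the 12 consecutive pairs, with circles for HFD-O, squares for CON-O, library numbers beside the points and a dashed line of equal values. Most pairs lie near the line, and the pair 9/10 lies farthest from it, with 66.0 CPM in library 10 and 28.6 CPM in library 9.

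Library totals ranged between 6132112 and 7994399 counts. Their median was 6827704.5 in Hcrt-rich and 7058323 in Hcrt-poor libraries, a difference of means of -277637 counts (p = 0.0913, 2-sided exact permutation test with classes exchanged within groups). Library 11, an Hcrt-rich male CON-O library, stood apart from all others. Its count of Agrp, the hunger peptide of the arcuate nucleus, was 2, or 0.295 CPM against 5.03 to 15.5 CPM in the other 23 libraries. Pomc, the satiety peptide precursor of the same nucleus, was at 5.31 CPM against 16.0 to 34.9 CPM, Foxb1, a transcription factor of the mammillary region, at 6.63 CPM against 17.1 to 56.0 CPM, and Hdc, the histamine synthesis enzyme of the tuberomammillary neurons, at 8.11 CPM against 33.5 to 78.5 CPM. The vasopressin gene Avp of the magnocellular nuclei was within the range of the others, at 178 CPM against 73.4 to 240.0 CPM. So was Sst, a gene of the arcuate and tuberal list, at 224 CPM against 153.6 to 225.6 CPM. Results are therefore also given without library 11.

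Hcrt apart, 92 of 11629 genes tested (0.791%) differed between the classes at an adjusted p under 0.05 by edgeR's quasi-likelihood test with Benjamini-Hochberg adjustment, with group as a covariate. Of these, 63 (0.542%) were higher and 29 (0.249%) lower in Hcrt-rich libraries, and over all genes the median log2 difference was -0.00084, with 49.5% of genes above 0. At an unadjusted p under 0.05 there were 808 higher (6.95%) and 653 lower (5.62%) genes. Without library 11 there were 29 calls, 18 higher and 11 lower. When limma-voom was given the estimated correlation of 0.29 between the libraries of a consecutive pair, no gene was called (smallest adjusted p = 0.0724), while 1044 genes had an unadjusted p under 0.05 (8.98%, with 5.19% higher and 3.78% lower) and all 92 genes kept their sign. With each pair as a fixed block, which rests the contrast on the pairs 7/8 and 9/10 alone, no gene was called either (smallest adjusted p = 0.9995 with edgeR, 423 genes or 3.64% at an unadjusted p under 0.05), and 78 of the 92 kept their sign.

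The number of calls also depended on single libraries. It came to 28 without library 1, 30 without library 2, 33 without library 3, 25 without library 4, 37 without library 10, 29 without library 11, 21 without library 12, 53 without library 13, 37 without library 15 and 27 without library 17. It came to 54 without library 18, 19 without library 20, 23 without library 22, 49 without library 23 and 35 without library 24. Without library 7 it was 182 and without library 9 it was 158. Leaving out any of the other 7 libraries kept it within 1.5 times of 92.

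Most genes of mature oligodendrocytes rose in Hcrt-rich libraries. All 11 members of the oligodendrocyte list had differences above 0, 9 of them called, with a median log2 difference of 0.72 against -0.00084 over all genes tested. Mbp, which encodes a major protein of compact myelin, had a lowest value of 541.1, a median of 1048 and a highest value of 1687 CPM in Hcrt-rich libraries, against 411.9, 527.5 and 1201 CPM in Hcrt-poor ones. The classes overlapped, since library 7 was the lowest of the Hcrt-rich class and Hcrt-poor library 21 reached 1201 CPM. Its log2 difference was 0.80 ± 0.17 (SE, adjusted p = 0.0285).

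Cnp, an enzyme of myelinating oligodendrocytes, ranged between 409.9 and 612.5 CPM with a median of 477.9 CPM in Hcrt-rich libraries, and between 327.0 and 516.4 CPM with a median of 370.3 CPM in Hcrt-poor ones. Its log2 difference was 0.35 ± 0.07 (SE, adjusted p = 0.0146). Ermn, a cytoskeletal protein of late oligodendrocytes, had the largest called difference of the list at 1.15, with 3.01 ± 0.991 CPM in Hcrt-rich and 1.36 ± 0.696 CPM in Hcrt-poor libraries (SD, n = 12 each). The log2 difference was 1.03 for Mobp, a myelin basic protein of oligodendrocytes, 0.86 for Mal, a proteolipid of membrane rafts, and 0.69 for Cldn11, the claudin of myelin tight junctions. It was 0.62 for Mag, an adhesion protein between myelin and axon, and 0.56 for Ugt8, which makes the galactolipids of myelin. The members that were not called were Opalin (log2 difference 1.10, adjusted p = 0.117) and Mog (0.16, adjusted p = 0.288), both membrane proteins of oligodendrocytes.

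The summed level of the 11 oligodendrocyte genes ranged between 1622 and 3992 CPM with a median of 2713 CPM in Hcrt-rich libraries, against 1290 to 3056 CPM with a median of 1562 CPM in Hcrt-poor ones. Without library 11, whose sum was the highest, all 11 genes stayed above 0, 5 were called and the median was 0.61. Over the 24 omissions of a single library the number called ranged between 3 and 9, with 3 without library 12 and 3 without library 20, and the median between 0.61 and 0.84. With the correlation within pairs, 10 of the 11 had an unadjusted p under 0.05 and none was called. In the pair block 10 of 11 were above 0, with a median of 0.22. Ranking by Mbp instead placed 10 of the 12 Hcrt-rich libraries in the upper 3 of their groups and 2 in the lower 3. Mbp was itself called between the classes, so this overlap restates that difference and is no separate result.

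**Figure D3:**
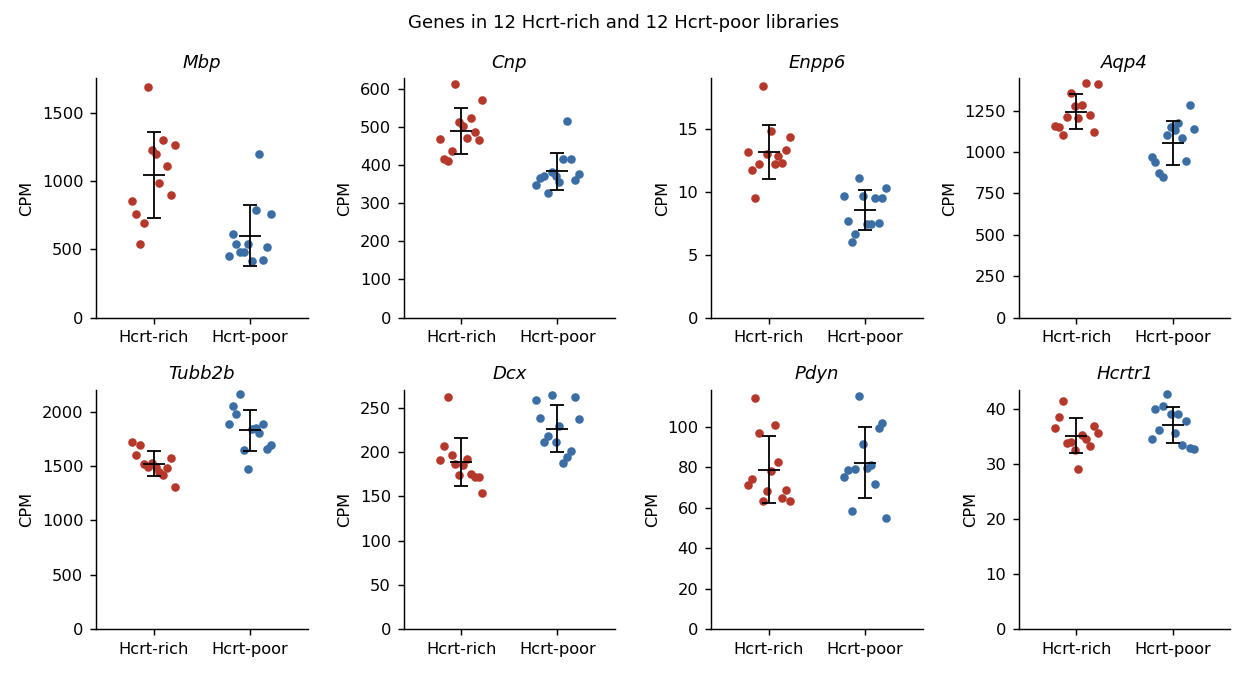
Level in CPM (vertical axes, from 0) of 8 genes in each of the 12 Hcrt-rich and 12 Hcrt-poor libraries, with points for libraries and black bars for the mean ± SD. Mbp, Cnp, Enpp6 and Aqp4 lie higher and Tubb2b and Dcx lower in Hcrt-rich libraries with overlapping points, while Pdyn and Hcrtr1 cover nearly the same range in both.

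Genes of earlier stages of the oligodendrocyte lineage had smaller positive differences. All 7 precursor genes were above 0 with a median of 0.22, but only Bcas1, a marker of premyelinating cells, was called (log2 difference 0.32, adjusted p = 0.0316). Olig1 (0.25, adjusted p = 0.074), Olig2 (0.20, adjusted p = 0.102) and Gpr17 (0.25, adjusted p = 0.118), the lineage factors and the receptor of committed precursors, were not called. Pdgfra, the growth factor receptor of dividing precursors, was at 320.9 ± 27.1 CPM in Hcrt-rich and 300.2 ± 25.2 CPM in Hcrt-poor libraries (SD, n = 12 each), a log2 difference of 0.10 with a 95% interval of -0.00094 to 0.19. The Bcas1 call was lost in 10 of the 24 omissions of a library, among them those of libraries 12 and 20, and kept without library 11. With the correlation within pairs Bcas1 was not called (adjusted p = 0.137, limma-voom), and in the pair block its log2 difference was 0.14.

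Several of the 12 genes with the smallest p among those higher are also known from oligodendrocytes. Serinc5, a serine incorporator, had the smallest p of all, with 107 ± 10.5 CPM in Hcrt-rich and 85.9 ± 7.15 CPM in Hcrt-poor libraries (SD, n = 12 each), a log2 difference of 0.32 and an adjusted p of 0.0146 in the edgeR fit. Enpp6, a choline phosphodiesterase of newly forming oligodendrocytes, ranged between 9.55 and 18.4 CPM with a median of 12.9 CPM in Hcrt-rich libraries, against 6.02 to 11.1 CPM with a median of 8.58 CPM in Hcrt-poor ones. Library 7 was the only Hcrt-rich library within the range of the Hcrt-poor ones, and the log2 difference was 0.62 ± 0.10 (SE, adjusted p = 0.0146). Fa2h, the hydroxylase of myelin sphingolipids, differed by 0.58 and Nipal4, a magnesium transporter family member, by 1.15. The other genes of the 12 were Map6d1 (0.44), a microtubule-associated protein, Pnlip (0.57), known as the pancreatic lipase, Kank1 (0.29), a regulator of actin, Pygm (0.38), a glycogen phosphorylase, and Pla2g16 (0.30), a phospholipase. All 12 were also called without library 11, and none with the correlation within pairs (adjusted p = 0.0724 for Serinc5 and 0.0815 for Enpp6, limma-voom). In the pair block the log2 difference was 0.18 for Serinc5, 0.07 for Enpp6, 0.07 for Kank1, 0.10 for Pla2g16, 0.19 for Pygm, 0.28 for Map6d1, 0.50 for Fa2h and 0.78 for Nipal4.

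In the lists of other glia and of vessels most genes had small positive differences, with a call for 1 astrocyte and 1 microglia gene. Called genes outside these lists, among them Agt, Ndrg2 and Cav1, were not counted here. All 7 astrocyte genes tested were above 0 with a median of 0.18, and Aqp4, the water channel of astrocyte endfeet, was called, with a lowest value of 1101, a median of 1218 and a highest value of 1416 CPM in Hcrt-rich libraries against 850.3, 1092 and 1281 CPM in Hcrt-poor ones (log2 difference 0.24, adjusted p = 0.0355). Aldoc, a glycolytic enzyme (0.21, adjusted p = 0.0669), and Gja1, the gap junction protein (0.17, adjusted p = 0.119), were not called. All 10 microglia genes were above 0 with a median of 0.20, and Ctss, a lysosomal protease, was called (0.31, adjusted p = 0.0355), whereas the receptor gene Csf1r (0.23, adjusted p = 0.0584) and the complement gene C1qb (0.27, adjusted p = 0.108) were not. The 6 endothelial genes tested were all above 0 with a median of 0.17 and no call, among them Flt1 (0.27), Esam (0.18) and Cldn5 (0.13). Of 6 mural cell genes 5 were above 0, with Abcc9 at 0.25, Rgs5 at 0.22 and Kcnj8 at 0.11 and no call. Without library 11 neither Aqp4 (adjusted p = 0.0714) nor Ctss (adjusted p = 0.0693) was called, and each list lost its call in 12 of the 24 omissions. With the correlation within pairs neither was called (adjusted p = 0.191 for Aqp4 and 0.205 for Ctss, limma-voom). In the pair block 4 of 7 astrocyte genes, 6 of 10 microglia genes and 3 of 6 endothelial genes were above 0.

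**Figure D4:**
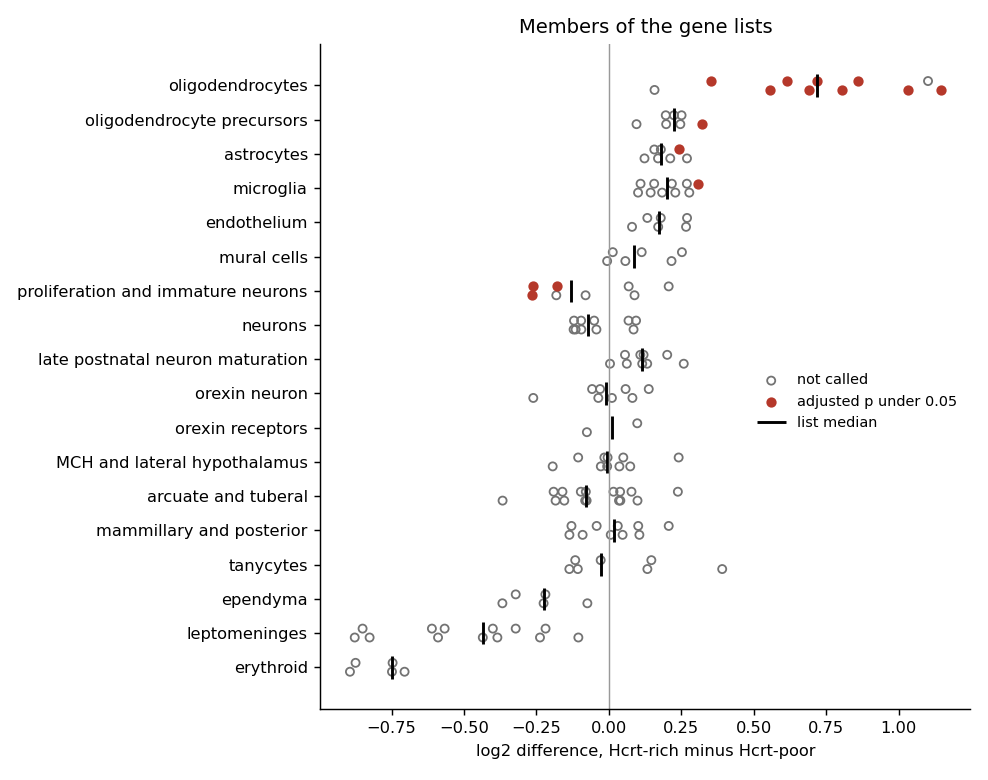
Log2 difference, Hcrt-rich minus Hcrt-poor (horizontal axis), for the tested members of 18 of the gene lists, with filled red circles for genes at an adjusted p under 0.05, open circles for the others and a black bar at each list's median. The oligodendrocyte genes lie farthest to the right with a median of 0.72, and the erythroid and leptomeningeal genes lie to the left with medians of -0.75 and -0.44 and no call.

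Of the genes of immature neurons, Tubb2b, Dcx and Sox4 fell in Hcrt-rich libraries. Of the 8 tested members of the list of proliferation and immature neurons 5 were below 0 and 3 of them were called, with a median of -0.13. With the correlation within pairs none of the 3 was called (adjusted p = 0.156 for Tubb2b, 0.182 for Dcx and 0.191 for Sox4, limma-voom), with a list median of -0.09. Tubb2b, a tubulin of growing neurons, ranged between 1303 and 1722 CPM with a median of 1507 CPM in Hcrt-rich libraries, against 1477 to 2160 CPM with a median of 1846 CPM in Hcrt-poor ones (log2 difference -0.27, adjusted p = 0.0146). Libraries 5, 6 and 7 were the highest of the Hcrt-rich class and libraries 8 and 9 the lowest of the Hcrt-poor one, where the classes overlapped. Dcx, the microtubule protein of migrating neurons, averaged 189 ± 27.02 CPM in Hcrt-rich and 227 ± 26.5 CPM in Hcrt-poor libraries (SD, n = 12 each), a log2 difference of -0.26 (adjusted p = 0.0414, edgeR). Sox4, a transcription factor of young neurons, differed by -0.18 (adjusted p = 0.0389). The division genes of the list were not called, with Cdk1 at 0.21 (adjusted p = 0.261) and Mki67 at 0.09 (adjusted p = 0.731).

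Without library 11 only Tubb2b of these was called (adjusted p = 0.0251), and over all omissions between 1 and 3 members were. In the pair block 5 of the 8 were above 0, with a median of 0.04 and with Tubb2b at 0.05.

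Besides Tubb2b and Rpl17, 10 genes were among the 12 with the smallest p of those lower. Mapt, which encodes the axonal microtubule protein tau, was at 1329 ± 97.9 CPM in Hcrt-rich and 1519 ± 76.6 CPM in Hcrt-poor libraries (SD, n = 12 each), a log2 difference of -0.19 (adjusted p = 0.0146, edgeR). Crmp1 (-0.24) and Dpysl5 (-0.21) encode collapsin response mediators of growth cones, and Ablim3 (-0.24) encodes an actin-binding protein. Rab3d, a small GTPase of secretory vesicles, differed by -0.31, Nasp, a histone chaperone, by -0.19, Sdc3, a neuronal heparan sulfate proteoglycan, by -0.15, and Kdm2b, a histone demethylase, by -0.16. Hsdl1 differed by -0.19 and Pmfbp1 by -0.56. In the pair block the values were 0.0028 for Crmp1, 0.05 for Dpysl5 and 0.0040 for Sdc3, so that these did not keep their direction, while Mapt stood at -0.02, Ablim3 at -0.07, Rab3d at -0.34 and Pmfbp1 at -0.60. With the correlation within pairs none was called. Without library 11 neither Dpysl5 (adjusted p = 0.0599, edgeR) nor Pmfbp1 (adjusted p = 0.0636, edgeR) was called, while the other 10 of the 12 genes were.

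Rpl17, a ribosomal protein gene, had the largest difference of the lower genes at -3.97 on the log2 scale (adjusted p = 0.0146, edgeR), but its counts fell into separate levels. In the 12 Hcrt-rich libraries it had 3 to 9 counts. Among the Hcrt-poor ones it had 189 to 270 counts in 6 libraries (2, 3, 4, 21, 22 and 24) and 2 to 14 counts in the other 6. Ribosomal protein genes have many near-identical copies in the genome between which reads can be split. The cause of the separate Rpl17 levels was not tested, and they leave its log2 difference uncertain. In the pair block that difference was 0.64.

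The neighbours of Hcrt in the orexin neuron did not differ detectably. Of the 8 genes in the orexin neuron list 4 were above 0 and none was called, with a median of -0.01. Pdyn ranged between 63.5 and 114 CPM with a median of 72.7 CPM in Hcrt-rich libraries, against 54.8 to 115 CPM with a median of 79.5 CPM in Hcrt-poor ones, and its log2 difference was -0.06 with a 95% interval of -0.29 to 0.17. The interval is wide enough to hold a change of either sign, and Pdyn is also made by other hypothalamic neurons. Igfbp3, a binding protein of insulin-like growth factors, was at 21.9 ± 1.58 CPM in Hcrt-rich and 19.9 ± 1.14 CPM in Hcrt-poor libraries (SD, n = 12 each), a log2 difference of 0.14 with an interval of 0.04 to 0.24 and an adjusted p of 0.215 (edgeR).

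The difference was 0.01 for Nptx2 (interval -0.07 to 0.09), a synaptic pentraxin, and -0.03 for Slc17a6 (-0.12 to 0.06), the vesicular glutamate transporter. It was -0.26 for Lhx9 (-0.96 to 0.43), a factor needed for orexin neurons in mice, 0.08 for Qrfp (-0.23 to 0.40), an arousal peptide of neighbouring neurons, 0.06 for Ebf2 (-0.27 to 0.39), a transcription factor, and -0.04 for Plagl1 (-0.19 to 0.12), an imprinted zinc finger factor. Lhx9 and Qrfp had few reads, with means of 2.77 CPM each in Hcrt-rich libraries against 3.32 CPM for Lhx9 and 2.61 CPM for Qrfp in Hcrt-poor ones. Of the receptors, Hcrtr1 was at 35.1 ± 3.15 CPM in Hcrt-rich and 37.0 ± 3.30 CPM in Hcrt-poor libraries (SD, n = 12 each), a log2 difference of -0.08 (interval -0.18 to 0.03), and Hcrtr2 at 12.9 ± 2.74 CPM in Hcrt-rich and 12.0 ± 1.26 CPM in Hcrt-poor libraries, a difference of 0.10 (interval -0.09 to 0.29).

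Of 11 lateral hypothalamic genes 10 were tested, with 4 above 0, none called and a median of -0.0053. Pmch, the gene of MCH, is not analysed here. Cartpt, the precursor of an anorexigenic peptide that MCH neurons also make, ranged between 56.0 and 99.1 CPM with a median of 70.7 CPM in Hcrt-rich libraries, against 40.4 to 74.4 CPM with a median of 65.9 CPM in Hcrt-poor ones. The classes overlapped, the log2 difference was 0.24 with an interval of 0.07 to 0.41, and it did not pass the adjustment (adjusted p = 0.194, edgeR). For the other neuropeptides the differences were -0.19 for Npvf, -0.11 for Nts, 0.07 for Gal, 0.05 for Trh, 0.04 for Tac1 and -0.0061 for Penk. They were -0.02 for Tacr3, the neurokinin B receptor, -0.03 for Synpr, a synaptic vesicle protein, and -0.0046 for Parm1.

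The lists for other hypothalamic regions and for tissue around the hypothalamus had no call. The arcuate and tuberal list of 16 genes had a median of -0.08, with Sox14 at -0.37 (unadjusted p = 0.00636 in edgeR's fit, -0.29 without library 11), Tac3 at 0.24 and Fezf1 at -0.16. The median was 0.0063 for magnocellular and releasing hormones (Gnrh1 -0.33, Oxt 0.11, Sim1 -0.05), -0.06 for suprachiasmatic and preoptic genes (Lhx1 -0.22, Vip 0.31, Calcr -0.12) and 0.02 for mammillary and posterior genes (Foxa1 -0.13, Foxb1 -0.14). It was -0.06 for the zona incerta and prethalamus (Dlx1 -0.15, Dlx2 -0.12, Pvalb 0.31), -0.04 for the thalamus (Tnnt1 -0.80, Synpo2 0.29, Tcf7l2 0.22), -0.05 for the telencephalon (Neurod2 0.59, Nrgn 0.10) and -0.04 for midbrain dopamine genes (Ddc -0.08, Ret 0.08, Slc18a2 -0.09). GABA neuron genes had a median of -0.01 (Gad1 -0.04, Gad2 -0.06), immediate early genes of -0.06 (Npas4 -0.39, Btg2 -0.16, Nr4a1 0.18) and oestrogen and stress receptors of -0.02 (Mc4r -0.15, Nr3c1 0.10, Pgr -0.14). Tanycyte genes had a median of -0.03 (Nes 0.15, Dio2 0.39, Vim -0.11).

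General neuronal genes and genes of neuronal maturation leaned in different directions without a call. Of 10 general neuronal genes 7 were below 0 with a median of -0.07, among them the growth cone protein gene Gap43 at -0.12 and the neuronal tubulin gene Tubb3 at -0.11, whereas the synaptic gene Snap25 was at 0.09. All 9 genes of late postnatal maturation were above 0 with a median of 0.11, among them the potassium channel gene Kcnc1 at 0.12 (adjusted p = 0.247) and the matrix gene Hapln4 at 0.26 (adjusted p = 0.344). Of 11 genes of peptide processing 10 were above 0 with a median of 0.03, led by Vgf at 0.14 (adjusted p = 0.127), with Cpe at 0.09 and Pcsk1n at 0.09.

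Genes of blood and of the brain's coverings lay below 0 without passing the adjustment. All 5 erythroid genes were below 0 with a median of -0.75 and unadjusted p-values under 0.05 (edgeR) but no call. Over all genes tested 5.62% were lower at that threshold. With the correlation within pairs none of the 5 had an unadjusted p under 0.05 (limma-voom). The median of the erythroid list was -0.39 in female and -1.19 in male libraries alone. Hbb, a beta globin gene, ranged between 147 and 1012 CPM with a median of 244 CPM in Hcrt-rich libraries, against 178 to 1988 CPM with a median of 587.6 CPM in Hcrt-poor ones (log2 difference -0.89, adjusted p = 0.294). Hba2 was at -0.75 and Slc4a1, the red cell anion exchanger, at -0.87. The summed level of the 5 genes ranged between 514 and 3493 CPM in Hcrt-rich and between 619 and 5932 CPM in Hcrt-poor libraries.

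All 13 leptomeningeal genes were below 0 with a median of -0.44 and no call. In male libraries alone all 13 were below 0 with a median of -0.87 and 5 at an unadjusted p under 0.05, whereas in female libraries alone 6 of the 13 were above 0 with a median of -0.0080. Over all libraries the values were -0.88 for Slc13a4, -0.85 for Ogn, -0.83 for Aldh1a2 and -0.40 for the collagen gene Col3a1. The summed level of all 13 genes ranged between 186 and 1037 CPM in Hcrt-rich and between 159 and 1558 CPM in Hcrt-poor libraries. None of the 4 genes named was at 0 in any library. All 5 ependymal genes were below 0 with a median of -0.23, with Tmem212 at -0.32, Ccdc153 at -0.23 and Rarres2 at -0.37, and so were all 5 choroid plexus genes with a median of -0.09, with Otx2 at -0.09, Folr1 at -0.10 and Aqp1 at -0.43. The 1 pituitary gene tested, Lhb, was at -0.12. The part of blood, meninges or glia in the other differences was not tested.

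The genes whose levels followed Hcrt most closely were named by the correlation of log2(CPM + 1) with Hcrt over the 24 libraries after group means were removed. The 8 highest were Phlda3 (r = 0.82), Ermn (0.82), Pnlip (0.80), RGD1561849 (0.79), Fa2h (0.79), Cnp (0.79), Map6d1 (0.77) and Sptbn4 (0.77). The libraries share dissection, depth and the pairing of numbers described above, so the values are a description. Both the correlations and the classes rest on the same Hcrt values, so that calls among these 8 genes are no separate result. Those not described above were Phlda3 (log2 difference 0.22), RGD1561849 (0.23) and Sptbn4 (0.16), the gene of a spectrin at nodes of Ranvier and axon initial segments. Without library 11 neither Phlda3 (adjusted p = 0.102, edgeR) nor Sptbn4 (adjusted p = 0.0678, edgeR) was called, and in the pair block the values were 0.18 for Phlda3 and 0.03 for Sptbn4.

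No gene differed between the sexes in the contrast by edgeR's interaction test (smallest adjusted p = 0.33, 229 genes or 1.97% at an unadjusted p under 0.05), and none between the diets (smallest adjusted p = 0.999, 472 genes or 4.06%). The log2 difference of Mbp was higher by 0.07 in males than in females and -0.19 for HFD-O minus CON-O, neither of them called. Within female libraries alone 10 genes were called, and within male, HFD-O or CON-O libraries alone none, with 593 to 949 genes at an unadjusted p under 0.05 in those 3 subsets. The oligodendrocyte list had all 11 genes above 0 in every subset, with a median of 0.71 in females, 0.73 in males, 0.66 in HFD-O and 0.79 in CON-O libraries.

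**Figure D5:**
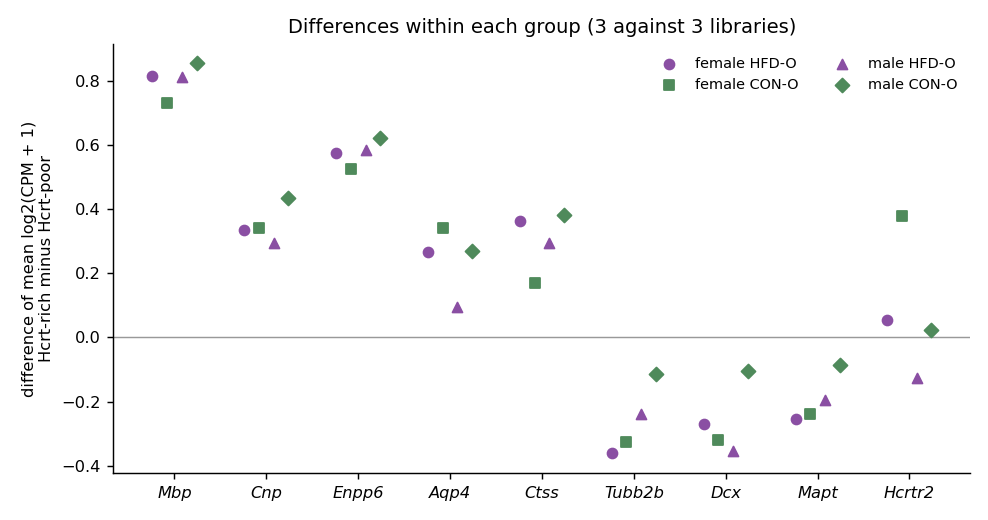
Difference of mean log2(CPM + 1), Hcrt-rich minus Hcrt-poor (vertical axis), for 9 genes within each of the 4 groups, 3 against 3 libraries, with purple symbols for HFD-O and green symbols for CON-O. Mbp lies above 0 and Tubb2b below 0 in all 4 groups, and the receptor gene Hcrtr2 scatters around 0.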

How the data were processed

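Hypothalamic RNA of 24 pups was sequenced after library preparation with a TruSeq kit. Per the submitters' processing notes the reads were checked with FastQC, mapped with TopHat to rn6 and tested with edgeR, while the study's methods name Trimmomatic and Bowtie2. No source used here gives the read counter, the annotation, the strand setting or any version. The authors deposited 1 table per sex with whole counts per gene for 12 libraries each. A further 24 columns of per-library values were not used here, nor were the authors' own comparison columns (fold changes, dispersion and p-values). The tables share 13841 gene names, after 23 and 24 rows whose names had become dates were set aside.

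Library totals were the column sums. Genes passed edgeR's filterByExpr (minimum count 10, minimum total 15), which left 11629 without Hcrt and 99.7% of all counts, and were fitted with edgeR 4.0.16 (TMM, quasi-likelihood test, Benjamini-Hochberg adjustment over all genes, threshold 0.05). Alternatives used limma 3.58.1 and DESeq2 1.42.0, other filters and scalings, omission of each library, and the consecutive pairs.

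The members and the 30 gene lists were chosen with earlier results of these data known. Genes were named by rule: all members of the orexin neuron, orexin receptor and lateral hypothalamic lists, the 12 smallest p in each direction, the 8 highest correlations with Hcrt, and up to 3 smallest p of each other list. A few genes that the rule named are not reported here. Mbp, Mag, Mog, Mobp, Mal, Cldn11, Opalin, Gpr17, Pdgfra, Cdk1, Mki67, Col3a1, Agrp, Pomc, Hdc, Avp, Npy, Ghrh, Kiss1 and Nr5a1 were added after their values were seen.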

Additional observations from a re-analysis of the deposited data

Results flagged for a closer look

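In 50 of 536 groups of 6 libraries examined, over 42 genes named here, 1 library lay farther from the other 5 than the critical value of 0.625 of Dixon's test allows. For independent groups of normally distributed values about 1 group in 20 would pass that limit. The genes here were partly chosen by their values and vary together, so the share flagged is not compared with chance. Values are in CPM, each against the nearest other library of the same group, and the cause was not tested.

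Library 11, an Hcrt-rich male CON-O library, was the highest of its group for Hcrt (63.5 against 40.8), Mbp (1687 against 855), Mal (16.5 against 8.06), Ermn (3.98 against 1.94), Cldn11 (121 against 67.9), Ugt8 (137 against 85), Nipal4 (6.34 against 2.92), Bcas1 (315 against 220.3), C1qb (43.3 against 31.1), Pnlip (43 against 26.7), Cpe (332 against 279) and Cldn5 (141 against 109). It was the lowest for Nptx2 (124 against 148), Sox14 (3.69 against 9.86), Agrp (0.295 against 8.46), Hdc (8.11 against 48), Foxb1 (6.63 against 34.6), Lhx1 (6.78 against 16.9) and Slc18a2 (43.3 against 70.7). Library 11 thus combined the highest Hcrt and myelin values of its group with the lowest values of Agrp, Pomc, Hdc, Foxb1 and Sox14. Npy (20.2 against 28.2 to 59.3 over the other 23 libraries) and Ghrh (1.33 against 2.61 to 8.04) were below all others too. So were Kiss1 (0.295 against 0.759 to 4.61, on 2 counts) and Nr5a1 (2.80 against 3.99 to 11.8). Some other genes of the arcuate and mammillary lists were not the lowest in it. Tac3 was the highest of the group at 14.0 CPM, and Foxa1 was at 3.10 CPM against 2.21 CPM in library 9.

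Library 12, Hcrt-rich female CON-O, was the highest of its group for Mbp (1229 against 759), Mog (36.7 against 32), Mal (15.2 against 7.65) and Opalin (6.06 against 2.62). In the Hcrt-rich female CON-O library 6 the highest value was Trh (149.6 against 131) and the lowest was Slc17a6 (595 against 661). Library 20, Hcrt-rich female HFD-O, was the highest for Aldoc (1201 against 979).

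The other flags fell on Hcrt-poor libraries. Library 21 (male HFD-O) was the highest for Rpl17 (28.9 against 1.89), Hbb (1865 against 645), Slc4a1 (26.1 against 10.0) and Hba2 (1068 against 457) and the lowest for Ccdc153 (25.1 against 33.4). Library 23 (male HFD-O) was the highest for Npvf (26.1 against 19), Slc13a4 (43.9 against 16.4), Sox14 (12.8 against 9.25) and Rarres2 (7.76 against 4) and the lowest for Kcnc1 (67.9 against 81.2). Library 4 (female CON-O) was the highest for Slc13a4 (9.06 against 3.26), Ogn (16.3 against 6.11) and Aldh1a2 (6.94 against 2.02), and library 8 of the same group for Pmfbp1 (22.2 against 12.9) and Slc4a1 (10.8 against 4.35). Library 3 (male CON-O) was the highest for Rpl17 (32.7 against 1.33), library 9 of the same group for Rarres2 (3.45 against 2.11), and library 9 was also the lowest for Ret (66.5 against 89.7). Library 1 (male CON-O) was the highest for Npas4 (3.83 against 1.66) and the lowest for Snap25 (631 against 686). Library 2 (female CON-O) was the highest for Ddc (54.8 against 41.2). Libraries 15 and 16, the consecutive male and female HFD-O libraries, were each the highest of their groups for Tnnt1 (5.53 against 1.66) in library 15 and Tnnt1 (6.48 against 1.65) in library 16. Library 22 (female HFD-O) was the lowest for Hcrtr2 (11 against 12.1).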

How the results depend on the processing

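Between Hcrt-rich and Hcrt-poor libraries, 92 genes were called, 63 higher and 29 lower. The count was 217 with DESeq2 (136 higher, 81 lower), 168 with edgeR's likelihood ratio test (116 higher, 52 lower) and 18 with the upper 2 against the lower 2 libraries (17 higher, 1 lower), which uses fewer samples. It was 10 in female libraries alone (3 higher, 7 lower) and 0 in male (593 genes at an unadjusted p under 0.05), CON-O (941) and HFD-O libraries alone (949). It was 0 with each consecutive pair as a fixed block (423 at an unadjusted p under 0.05, edgeR) and 0 with the correlation within pairs (1044, limma-voom). Leaving out 1 library gave 19 to 182 calls, 10 to 124 higher and 9 to 65 lower. Under limma-voom, no TMM, no low-count filter, a minimum of 1 CPM, ranking by TMM-adjusted Hcrt and continuous Hcrt the counts were between 67 and 92, of which continuous Hcrt shared 42 of its 87.

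The pair block reversed Ctss (-0.0034), Tubb2b (0.047), Crmp1 (0.0028), Dpysl5 (0.046), Sdc3 (0.0040) and Rpl17 (0.64). Genes named in the text kept their direction otherwise where they were called. The difference between the sexes had 0 calls in every omission and 1 call with the correlation within pairs, Nxnl2 (log2 difference 1.21 for males minus females, adjusted p = 0.0482, limma-voom), a gene named after its value was seen. The difference between the diets had 0 to 1 calls over the omissions, the 1 being Fam111a (3.24 for HFD-O minus CON-O, adjusted p = 0.0386, edgeR) without library 23. For Hcrt between the diets, leaving out 1 library gave log2 differences of -0.33 to -0.10 in females and -0.42 to -0.18 in males, none with an exact permutation p under 0.05 (lowest 0.0952). No paired analysis by replicate number was possible because the groups share no library number. Depth limits low genes most: Hcrt rests on 158 to 431 reads per library, and Ermn, near 1 CPM in the Hcrt-poor libraries, on fewer.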
